A study of Mus musculus with 6 samples.

Results

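Wnt signaling was described here by 40 genes in bronchial smooth muscle cells (BSMCs) sorted from mouse lung. The genes were 8 ligands, 12 receptors, 11 intracellular genes, 7 secreted inhibitors and 2 secreted agonists, chosen by gene symbol. Each of the 40 listed symbols matched 1 of the 20239 probe sets that carried a single gene symbol, out of 21225 probe sets in all. The samples were 3 OVA samples, labelled asthma, and 3 PBS samples, labelled control, each on 1 Affymetrix whole-transcript array. All mice were αSMA-hrGFP;NG2-DsRed on C57BL/6J, in which the rat α-smooth muscle actin promoter drives hrGFP and the mouse NG2 (Cspg4) promoter drives DsRed, and BSMCs were sorted as CD45-, CD31-, hrGFP+ and DsRed- cells. Mice of the OVA group received ovalbumin (OVA), 50 µg per injection, intraperitoneally on days 0 and 7, and mice of the PBS group received PBS instead. Both groups then inhaled nebulized OVA on 5 days, from day 14 to day 18, and cells were taken on day 19. The mice were adults, and a closer age is not given in the sources used here. RNA of each sample came from several pooled mice by the study's methods, whereas the labels speak of single animals and microdissected muscle and give the OVA injections for every sample. The groups follow the sample titles, and p-values measure the spread between these samples.

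Wnt proteins are secreted, lipid-modified ligands that bind Frizzled receptors together with a co-receptor, Lrp5 or Lrp6 for the β-catenin branch and Ror1 or Ror2 for branches that act without β-catenin. When no ligand is bound, a complex of Axin, Apc and Gsk3b marks β-catenin for destruction, and when the receptors are engaged, Dishevelled proteins disable that complex and β-catenin joins TCF and LEF factors in the nucleus. Secreted frizzled-related proteins and Wif1 bind the ligands, the Dickkopf protein Dkk2 binds Lrp5 and Lrp6, and R-spondins raise the amount of receptor at the cell surface. In the lung, Wnt signals pattern the airway mesenchyme in development, and Wnt5a has been studied in airway smooth muscle in asthma.

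The study's methods left out 1 OVA array, unnamed there, as an outlier of a principal components analysis. It was taken here as the OVA array with the lowest mean correlation with the other arrays, which was OVA 2 at a Pearson r of 0.959, against 0.980 to 0.986 for the other 5. Genes of high level tended to lie lower on OVA 2 and genes of low level higher, with a slope of -0.168 per log2 unit of level. OVA 1 and OVA 3 were therefore compared with the 3 PBS arrays first and all 6 arrays second, and the level on OVA 2 is given beside the levels of each gene. The median level of the arrays lay between 6.73 and 6.79. Levels are log2 values of the authors' RMA summary, differences are log2 fold changes of OVA minus PBS, and precision is limited by the number of arrays. Of the marker lists, 12 of 12 smooth muscle markers had positive differences, where 56.3% of all genes had negative ones. Their mean levels were 10.88 and 11.22 on OVA 1 and OVA 3, with 10.03 on OVA 2. On PBS 1, PBS 2 and PBS 3 they were 10.93, 9.71 and 10.46. Acta2, the actin that marks the sorted cells, was at 12.44 and 12.52 on OVA 1 and OVA 3, with 12.09 on OVA 2, against 11.87 to 12.39 on the PBS arrays. Myh11, a myosin of mature smooth muscle, was at 11.63 and 11.86, with 11.13 on OVA 2, against 10.52 to 11.69. Markers of cells that the sort removes were not at the floor of the arrays. Ptprc, which encodes CD45, had levels of 8.09 and 8.31 on OVA 1 and OVA 3, with 6.18 on OVA 2, against 6.85 to 8.10 on the PBS arrays. Pecam1, which encodes CD31, had levels of 8.48 and 8.60, with 6.52 on OVA 2, against 8.59 to 9.44. Cspg4, whose promoter drives DsRed, was at 9.08 and 9.54 on OVA 1 and OVA 3, with 8.896 on OVA 2, against 8.81 to 9.63 on the PBS arrays.

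None of the 40 Wnt genes passed a false discovery rate (FDR) of 0.25, which 0.0395% of all 20239 genes tested passed (limma with Benjamini-Hochberg adjustment; 8 genes). With all 6 arrays none passed either, where 1 of all genes passed. With weights that count OVA 2 little 6 passed, but passes over all genes were not counted in that fit. It weighted OVA 1 at 3.3 and OVA 3 at 1.05. Of all genes it called 398 lower and 345 higher at an unadjusted p under 0.01, against 203 and 195 without OVA 2. At an unadjusted p under 0.01, 5 of the 40 were lower on OVA arrays, where 1.00% of all genes were, and 0 were higher, where 0.963% of all genes were. The 5 genes were the ligands Wnt2b and Wnt4, the receptors Fzd1 and Fzd8, and the secreted inhibitor Wif1. At an unadjusted p under 0.05, 8 were lower and 1 was higher, against 4.78% and 4.53% of all genes. For 16 of the 40 genes both OVA arrays lay below every PBS array, as for 16.8% of all genes, and for 2 they lay above every PBS array, as for 11.9%. The median difference of the 40 genes was -0.15, with 33 of 40 negative, beside a median of -0.02 and 56.3% negative over all genes tested. When 1 array was left out, Wnt4 and Fzd1 had unadjusted p-values of 0.0171 to 0.0420 and 0.0141 to 0.0396, whichever array it was. Wnt2b was above 0.01 without OVA 3 (0.0281), Wif1 without OVA 1 (0.0341) or OVA 3 (0.0196), and Fzd8 without OVA 1 (0.0206), OVA 3 (0.0129) or PBS 3 (0.0103). The list was written with results of these arrays known, so these counts are a description of it. In cells pooled from a sort, fewer cells of a type and less RNA per cell cannot be told apart.

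**Figure D1:**
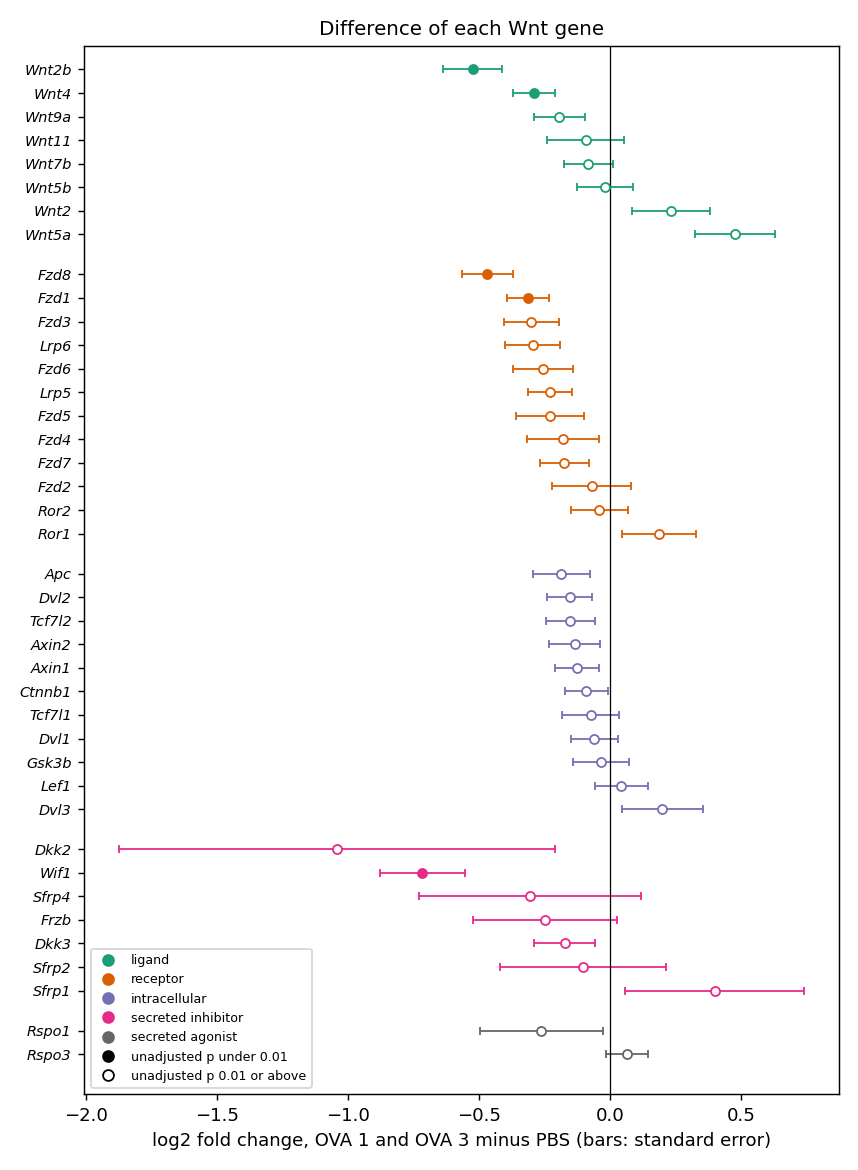
Log2 fold change of each of the 40 Wnt genes on OVA 1 and OVA 3 minus the 3 PBS arrays (horizontal axis), grouped by role down the page, with bars of 1 standard error; filled points mark an unadjusted p under 0.01. Of the 12 receptors 11 lie left of 0, and the 5 filled points are Wnt2b, Wnt4, Fzd8, Fzd1 and Wif1.

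Among the ligands, Wnt2b and Wnt4 were lower on the OVA arrays and Wnt5a was higher. Wnt2b, a ligand of the β-catenin branch that is expressed in lung mesenchyme, had levels of 7.25 on OVA 1, 7.08 on OVA 3 and 7.02 on OVA 2, against 7.59, 7.84 and 7.63 on PBS 1, PBS 2 and PBS 3. All 3 OVA arrays thus lay below all 3 PBS arrays. The mean of OVA 1 and OVA 3 was 7.16 ± 0.12 (SD, n = 2) and that of the PBS arrays 7.69 ± 0.13 (SD, n = 3), a difference of -0.53 (standard error 0.112), or 0.695-fold, with an unadjusted p of 0.00325 and an adjusted p of 0.48 from limma. Wnt4, a ligand with roles in kidney and reproductive tract development, had levels of 6.90 and 6.89 on OVA 1 and OVA 3, with 6.82 on OVA 2, against 7.21, 7.20 and 7.15 on the PBS arrays. The groups did not overlap, and the PBS arrays spread over less than 0.1 log2 units. The difference of Wnt4 was -0.29 (standard error 0.0789, unadjusted p = 0.00978, adjusted p = 0.48).

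Wnt5a, the ligand best known for acting without β-catenin, had levels of 10.24 and 10.06 on OVA 1 and OVA 3, with 9.76 on OVA 2, against 9.60, 9.48 and 9.94 on the PBS arrays. OVA 1 and OVA 3 lay above every PBS array and OVA 2 lay within their range. The difference was 0.48 (standard error 0.152, unadjusted p = 0.0194, adjusted p = 0.487), it was 0.61 without PBS 3 with an unadjusted p of 0.00291, and it was 0.35 with all 6 arrays (unadjusted p = 0.101). Wnt2, which with Wnt2b specifies the lung in the mouse embryo, had levels of 7.67 and 7.26 on OVA 1 and OVA 3, with 7.61 on OVA 2, against 7.10, 7.24 and 7.36 on the PBS arrays. OVA 1 and OVA 2 stood above the PBS arrays and OVA 3 lay among them, and the difference on OVA 1 and OVA 3 was 0.23 (standard error 0.148, unadjusted p = 0.167). Wnt11, a ligand of the β-catenin independent branch, had levels of 8.34 and 8.30 on OVA 1 and OVA 3, with 7.89 on OVA 2, against 8.15, 8.62 and 8.46 on the PBS arrays, with a difference of -0.09 (standard error 0.147). Wnt9a had levels of 7.76 and 7.79 on OVA 1 and OVA 3, with 7.75 on OVA 2, all below the 7.84 to 8.04 of the PBS arrays (difference -0.20, standard error 0.0968, unadjusted p = 0.0892). Wnt5b and Wnt7b had differences of -0.02 and -0.08, smaller than their standard errors of 0.106 and 0.0920, and both turned positive with all 6 arrays. The ligands as a group had a median difference of -0.09, with 6 of 8 negative, beside 56.3% of all genes.

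**Figure D2:**
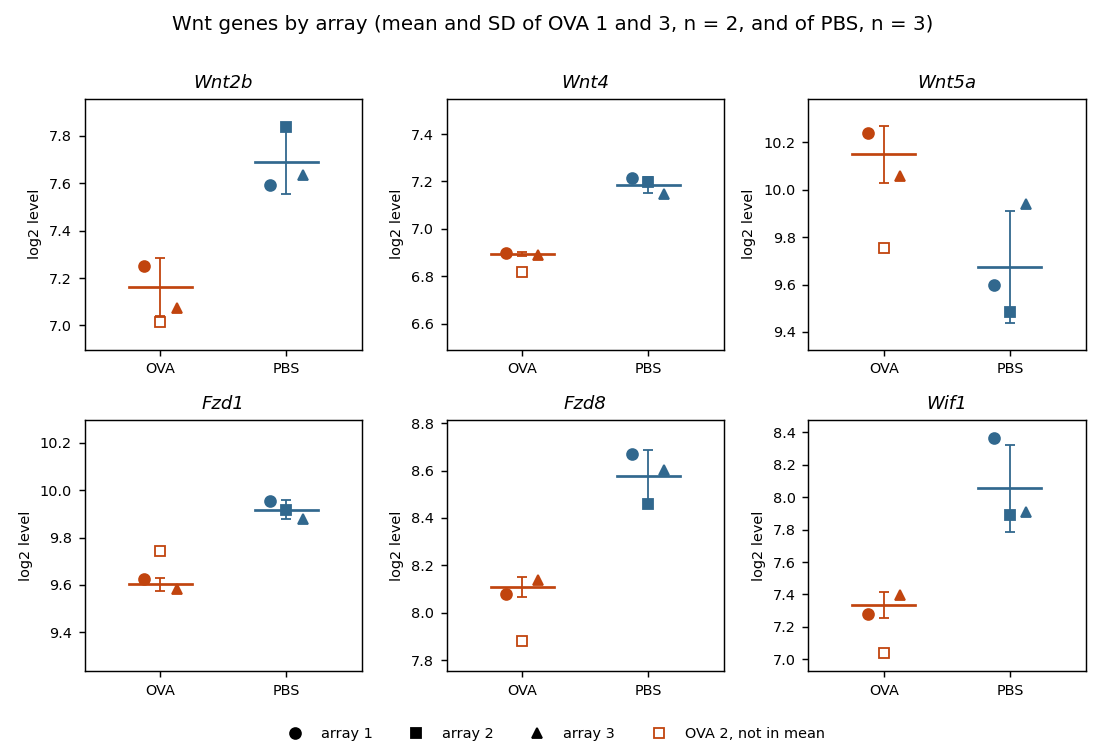
Log2 level (vertical axis) of 6 Wnt genes on each array, OVA left and PBS right, with the mean and SD of OVA 1 and OVA 3 (n = 2) and of the PBS arrays (n = 3); the open square is OVA 2, which is not in the mean. For Wnt2b, Wnt4, Fzd1, Fzd8 and Wif1 every OVA array lies below every PBS array, and for Wnt5a the OVA 2 array lies among the PBS arrays.

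Of the receptors 11 of 12 had negative differences, with a median of -0.23, beside 56.3% negative over all genes. The count was the same with all 6 arrays, where 45.0% of all genes were negative. Fzd8 and Fzd1 encode Frizzled receptors, the seven-pass proteins that bind Wnt ligands through a cysteine-rich domain. Fzd8 had levels of 8.08 and 8.14 on OVA 1 and OVA 3, with 7.88 on OVA 2, against 8.67, 8.46 and 8.60 on the PBS arrays. Its difference was -0.47 (standard error 0.0964, unadjusted p = 0.00265, adjusted p = 0.48 from limma), or 0.722-fold, and no OVA array overlapped the PBS arrays. Fzd1 had levels of 9.62 and 9.58 on OVA 1 and OVA 3, with 9.74 on OVA 2, against 9.96, 9.92 and 9.88 on the PBS arrays. The groups did not overlap, and the difference was -0.31 (standard error 0.0800, unadjusted p = 0.00751, adjusted p = 0.48). With all 6 arrays it was -0.27, with an unadjusted p of 0.0610.

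The co-receptors of the β-catenin branch went the same way as these Frizzled genes. Lrp6 had levels of 9.47 and 9.23 on OVA 1 and OVA 3, with 9.43 on OVA 2, against 9.68, 9.69 and 9.58 on the PBS arrays. Its difference was -0.30 (standard error 0.104, unadjusted p = 0.0280, adjusted p = 0.512). Lrp5 had levels of 9.12 and 9.003 on OVA 1 and OVA 3, with 8.82 on OVA 2, against 9.31, 9.27 and 9.30 on the PBS arrays, which differed among themselves by under 0.05 log2 units. Its difference was -0.23 (standard error 0.0833, unadjusted p = 0.0322, adjusted p = 0.516). For both co-receptors every OVA array lay below every PBS array. Fzd3, a Frizzled with a part in axon guidance, had levels of 6.42 and 6.36 on OVA 1 and OVA 3, with 6.49 on OVA 2, against 6.69, 6.83 and 6.55 on the PBS arrays, with a difference of -0.30 (standard error 0.106, unadjusted p = 0.0292, adjusted p = 0.512). Fzd6 had levels of 6.62 and 6.92 on OVA 1 and OVA 3, with 6.77 on OVA 2, against 7.06, 7.06 and 6.96 on the PBS arrays. Its groups did not overlap, but the difference of -0.26 (standard error 0.113, unadjusted p = 0.0625) was -0.11 without OVA 1 and -0.41 without OVA 3. Fzd7 had levels of 9.42 and 9.46 on OVA 1 and OVA 3, with 9.004 on OVA 2, against 9.73, 9.60 and 9.53 on the PBS arrays, and its difference of -0.18 (standard error 0.0947) was -0.32 with all 6 arrays. The differences of Fzd5, Fzd4 and Fzd2 were -0.23, -0.18 and -0.07, with overlapping groups. The tyrosine kinase co-receptors Ror1 and Ror2, which bind Wnt5a, also had overlapping groups, with differences of 0.19 (standard error 0.140) and -0.04 (standard error 0.108). Ror1 had levels of 9.84 and 9.997 on OVA 1 and OVA 3, with 9.42 on OVA 2, against 9.87, 9.49 and 9.84 on the PBS arrays.

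Intracellular genes differed less, from -0.19 for Apc to 0.20 for Dvl3, with a median of -0.09 and 9 of 11 negative (11 of 11 with all 6 arrays). Of all genes 56.3% were negative, and 45.0% with all 6 arrays. Genes of high level tended to lie lower on OVA 2, and all of the intracellular genes but Lef1 were at percentile 68.6 or above of mean level. None had an unadjusted p under 0.05. Ctnnb1, which encodes β-catenin, had levels of 10.77 and 10.86 on OVA 1 and OVA 3, with 10.55 on OVA 2, against 10.90, 10.94 and 10.87 on the PBS arrays, a difference of -0.09 (standard error 0.0826, unadjusted p = 0.308, adjusted p = 0.73). Axin2, which belongs to the destruction complex and is also induced by β-catenin, had levels of 8.12 and 8.01 on OVA 1 and OVA 3, with 8.12 on OVA 2, against 8.17, 8.31 and 8.13 on the PBS arrays. Its OVA levels lay below every PBS level, but OVA 1 and OVA 2 did so by less than 0.01 log2 units, and the difference was -0.14 (standard error 0.0963, unadjusted p = 0.207). Axin1, Apc and Gsk3b, the other members of that complex, had differences of -0.13, -0.19 and -0.03. Of the Dishevelled genes, Dvl2 was at 7.85 and 7.78 on OVA 1 and OVA 3, with 7.35 on OVA 2, against 7.90 to 8.03 on the PBS arrays (difference -0.15, standard error 0.0857), and Dvl1 had a difference of -0.06. Dvl3 had levels of 9.79 and 9.94 on OVA 1 and OVA 3, with 9.003 on OVA 2, against 9.82, 9.39 and 9.80 on the PBS arrays, and its difference of 0.20 (standard error 0.154) turned to -0.09 with all 6 arrays. The TCF and LEF genes Tcf7l1, Tcf7l2 and Lef1 had differences of -0.08, -0.15 and 0.04, with standard errors of 0.0917 to 0.109.

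Wif1, Wnt inhibitory factor 1, had the largest absolute difference of the 5 genes at an unadjusted p under 0.01. It had levels of 7.28 and 7.40 on OVA 1 and OVA 3, with 7.04 on OVA 2, against 8.36, 7.89 and 7.91 on the PBS arrays. Every OVA array lay below every PBS array, with PBS 1 the highest. The mean of OVA 1 and OVA 3 was 7.34 ± 0.08 (SD, n = 2) and that of the PBS arrays 8.06 ± 0.27 (SD, n = 3), a difference of -0.72 (standard error 0.162), or 0.608-fold, with an unadjusted p of 0.00423 and an adjusted p of 0.48 from limma. Without PBS 1 the difference was -0.56, with an unadjusted p of 0.00192.

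Several secreted inhibitors varied widely between the PBS arrays. The SD over the 3 PBS arrays had a median of 0.557 over the 7 secreted inhibitors, from 0.122 for Dkk3 to 1.58 for Dkk2, beside 0.218 over the 2 agonists, 0.130 over the ligands, 0.112 over the receptors, 0.0963 over the intracellular genes and 0.108 over all genes tested. Dkk2, a Dickkopf protein that binds Lrp5 and Lrp6, had levels of 5.93 and 6.24 on OVA 1 and OVA 3, with 6.77 on OVA 2, against 6.20, 8.95 and 6.23 on the PBS arrays. PBS 2 alone was high, and the difference of -1.04 (standard error 0.832, unadjusted p = 0.255) was -0.13 without it. Sfrp4, a secreted frizzled-related protein, had levels of 8.25 and 8.02 on OVA 1 and OVA 3, with 8.13 on OVA 2, against 7.77, 9.31 and 8.24 on the PBS arrays, and its difference of -0.31 (standard error 0.423) was 0.13 without PBS 2. Frzb, a further member of that family, was at 4.97 and 5.24 on OVA 1 and OVA 3, with 5.39 on OVA 2, against 4.87, 5.84 and 5.35 on the PBS arrays, and its difference of -0.25 (standard error 0.275) was -0.0051 without PBS 2. The R-spondin gene Rspo1 had levels of 7.80 and 7.48 on OVA 1 and OVA 3, with 7.66 on OVA 2, against 7.55, 8.34 and 7.82 on the PBS arrays, and its difference of -0.26 (standard error 0.236) was -0.047 without PBS 2. Dkk2, Sfrp4, Frzb and Rspo1 thus all had their highest level on PBS 2. On the same array the mean level of 8 mesothelium markers was 8.402 and that of 12 endothelium markers was 9.32, against 7.28 and 7.73, and 8.48 and 8.54, on PBS 1 and PBS 3, while that of 12 smooth muscle markers was 9.71, against 10.93 and 10.46. The part of these cell types in the 4 genes was not tested.

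Sfrp1 and Sfrp2 spread in another way, with PBS 1 apart from the other PBS arrays. Sfrp1 had levels of 10.92 and 10.67 on OVA 1 and OVA 3, with 10.53 on OVA 2, against 9.72, 10.53 and 10.95 on the PBS arrays, so that its difference of 0.40 (standard error 0.342, unadjusted p = 0.288) was within the spread of the PBS arrays. It was 0.06 without PBS 1. Sfrp2 had levels of 9.26 and 9.66 on OVA 1 and OVA 3, with 8.15 on OVA 2, against 10.20, 9.25 and 9.23 on the PBS arrays, and its difference of -0.10 (standard error 0.318) was 0.22 without PBS 1. Dkk3, a Dickkopf family member, had levels of 10.26 and 10.02 on OVA 1 and OVA 3, with 10.35 on OVA 2, against 10.25, 10.46 and 10.24 on the PBS arrays (difference -0.17, standard error 0.118). Rspo3 had levels of 6.18 and 6.24 on OVA 1 and OVA 3, with 6.32 on OVA 2, against 6.11, 6.17 and 6.18 on the PBS arrays. Its OVA arrays lay above every PBS array, though by less than 0.01 log2 units on OVA 1, and the difference was 0.06 (standard error 0.0806).

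**Figure D3:**
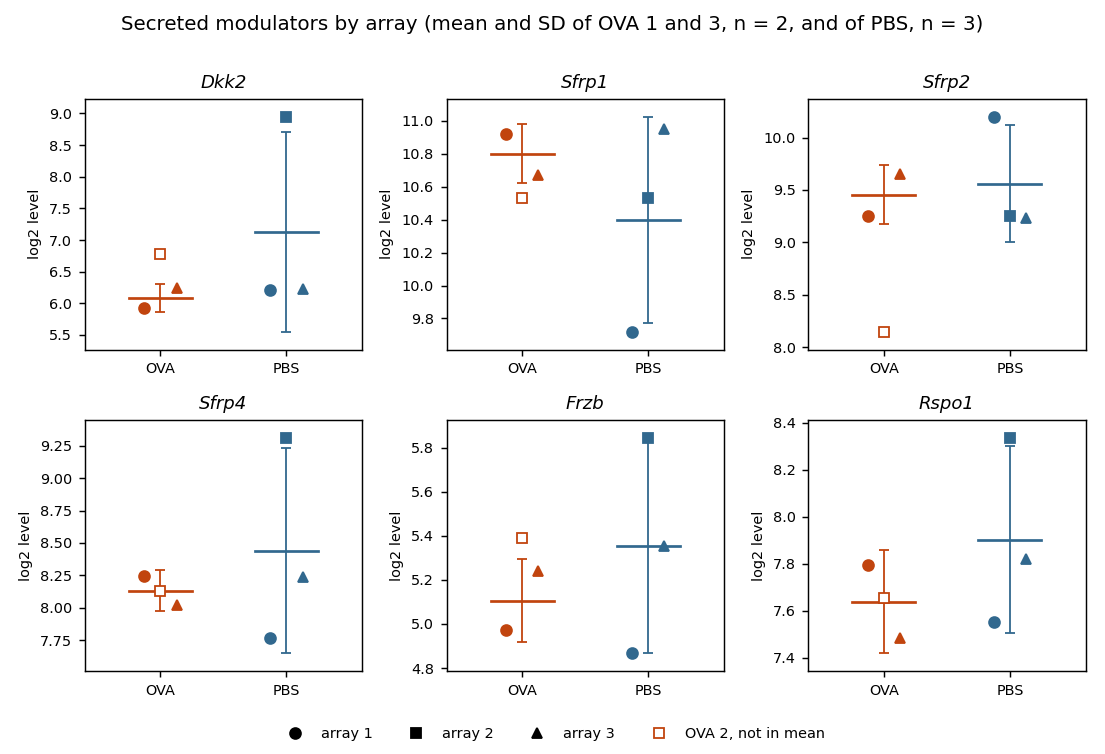
Log2 level (vertical axis) of 5 secreted inhibitors and Rspo1 on each array, OVA left and PBS right, with the mean and SD of OVA 1 and OVA 3 (n = 2) and of the PBS arrays (n = 3); the open square is OVA 2, which is not in the mean. PBS 2 (filled square) is the highest array for Dkk2, Sfrp4, Frzb and Rspo1, and PBS 1 (circle) is the lowest for Sfrp1 and the highest for Sfrp2.

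OVA 2 had no part in these p-values. On that array the 5 genes at an unadjusted p under 0.01 all lay below every PBS array, as did 163 of the 203 genes of the whole array that were lower at that p. Over all Wnt genes 27 of 40 lay below every PBS array on OVA 2 and 3 lay above, beside 37.7% and 45.7% of all genes tested. The PBS arrays are the same in both comparisons, and genes of high level tended to lie lower on OVA 2. With all 6 arrays 3 Wnt genes were lower at an unadjusted p under 0.01, namely Wnt2b, Fzd8 and Wif1 (unadjusted p = 0.00372, 0.00462 and 0.00231, adjusted p = 0.892 for each), beside 0.578% of all genes. For 16 of the 40 genes all 3 OVA arrays lay below every PBS array, beside 7.83% of all genes. The differences of Wnt2b, Fzd8 and Wif1 were then -0.57, -0.55 and -0.82.

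**Figure D4:**
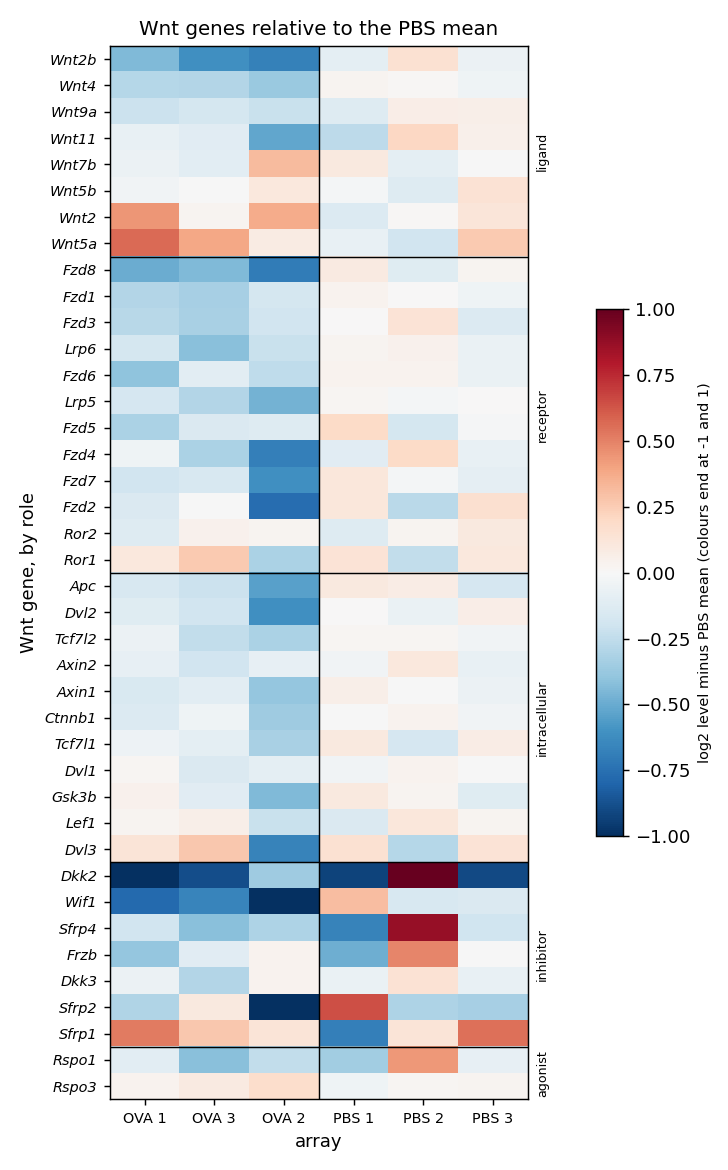
Log2 level of each Wnt gene (rows, grouped by role) on each array (columns, OVA left and PBS right) minus the mean of the 3 PBS arrays; blue is lower and red is higher, and colours end at -1 and 1. Blue runs through most receptors on the 3 OVA arrays, while among the secreted inhibitors Dkk2, Sfrp4 and Frzb are red on PBS 2.

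Of 86 other measured genes of the pathway, 6 (6.98%) were lower and 0 were higher at an unadjusted p under 0.05, beside 4.78% and 4.53% of all genes, and their median difference was -0.06 with 55 of 86 negative. At an unadjusted p under 0.01 the only one was Notum, a secreted enzyme that removes the lipid from Wnt proteins and a target of β-catenin. Notum had levels of 6.45 and 6.69 on OVA 1 and OVA 3, with 6.73 on OVA 2, against 7.62, 7.34 and 7.23 on the PBS arrays. No OVA array overlapped the PBS arrays, and the difference was -0.83 (standard error 0.144, unadjusted p = 0.00110, adjusted p = 0.413 from limma). The other 5 were Lrp4 (-0.68), a receptor of the Lrp family, Kremen1 (-0.20), a Dickkopf receptor, Znrf3 (-0.30), a ubiquitin ligase that removes Frizzled receptors and answers to R-spondins, Bambi (-0.49), a pseudoreceptor, and Myc (-0.34), with unadjusted p between 0.0146 and 0.0492. Lrp4 was at 9.29 and 8.70 on OVA 1 and OVA 3, but at 9.76 on OVA 2, against 9.55, 9.92 and 9.57 on the PBS arrays, and with all 6 arrays its groups overlapped (unadjusted p = 0.151). These 5 genes were named after their values were seen. Of 15 measured targets of β-catenin 4 were lower at an unadjusted p under 0.05, namely Notum, Znrf3, Bambi and Myc, and 0 were higher. In total, 9 of the 15 targets were negative, beside 56.3% of all genes, among them Axin2, and Lef1 was among the positive ones. None of 11 other ligands, 14 other cytoplasmic genes, 12 nuclear genes or 16 genes of planar cell polarity and other β-catenin independent branches had an unadjusted p under 0.05.

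Markers of other cells were measured on the same arrays. Over all genes tested 56.3% of differences were negative. At an unadjusted p under 0.05, 4.78% of all genes were lower and 4.53% were higher. Of 12 epithelium markers 11 had negative differences and 5 were lower at an unadjusted p under 0.05, with mean levels of 7.78 and 7.67 on OVA 1 and OVA 3, with 7.24 on OVA 2, against 7.91, 8.11 and 8.25 on the PBS arrays. Epcam, the defining marker of that list, was at 5.81 and 5.90 on OVA 1 and OVA 3, with 5.48 on OVA 2, against 5.74 to 6.15 on the PBS arrays. The other markers of the list stood higher. Scgb1a1 was at 11.49 and 11.68, with 9.65 on OVA 2, against 11.59 to 11.76. Sftpc was at 11.43 and 11.53, with 9.725 on OVA 2, against 11.34 to 11.52. Krt8 was lower (-0.71, limma unadjusted p = 0.00209), with every OVA array below every PBS array. Of 16 fibroblast markers 13 were negative and 1 was lower at an unadjusted p under 0.05, with mean levels of 10.58 and 10.30 on OVA 1 and OVA 3, with 10.71 on OVA 2, against 10.45, 10.70 and 10.61. Pdgfra, the defining marker of fibroblasts, was at 11.17 and 10.72 on OVA 1 and OVA 3, with 11.51 on OVA 2, against 11.01 to 11.40 on the PBS arrays. Of 8 mesothelium markers 7 were negative, with mean levels of 7.62 and 7.32, and 7.06 on OVA 2, against 7.28 to 8.402. Wt1 and Msln had differences of -0.31 and -0.46 (unadjusted p = 0.116 and 0.310). At an unadjusted p under 0.05 the keratin gene Krt19 was lower (-0.77, limma unadjusted p = 0.0103) and Aldh1a2, an enzyme of retinoic acid synthesis, was higher (0.76, limma unadjusted p = 0.00641). On OVA 2 Aldh1a2 was at 7.87, below the 8.18 to 8.53 of the PBS arrays. With all 6 arrays its difference was 0.35 (limma unadjusted p = 0.356). All 12 leukocyte markers were positive and 2 were higher at an unadjusted p under 0.05, with mean levels of 8.398 and 8.73 on OVA 1 and OVA 3, against 7.23 to 8.22 on the PBS arrays. On OVA 2 their mean level was 6.73, below every PBS array, and their median difference of 0.67 was 0.099 with all 6 arrays. Of the 8 markers of vascular smooth muscle and pericytes 4 were negative, with mean levels of 9.26 and 9.48, and 8.68 on OVA 2, against 9.04 to 9.58. Rgs5, a pericyte marker, was higher on OVA 1 and OVA 3 (1.13, limma unadjusted p = 0.00111). On OVA 2 it was at 7.99, below the 8.36 to 8.78 of the PBS arrays. With all 6 arrays its difference was 0.55 (limma unadjusted p = 0.275). Abcc9, a subunit of potassium channels, was lower (-0.44, limma unadjusted p = 0.00399). Notch3, which the paper calls restricted to vascular smooth muscle in the lung, had a difference of -0.16 (limma unadjusted p = 0.577). On OVA 1 and OVA 3 it was at 9.48 and 9.77, and on OVA 2 at 9.31. The PBS arrays had 9.41 to 10.33. Scgb1a1, Sftpc, Krt8, Krt19, Aldh1a2, Rgs5 and Abcc9 were named after their values were seen. All 12 endothelium markers were negative, with mean levels of 8.401 and 8.41, and 7.17 on OVA 2, against 8.48 to 9.32, and 0 of them had an unadjusted p under 0.05. The array values have no 0, so no marker can be called absent. The part of these cells in the levels of Wnt2b, Wnt4, Fzd1, Fzd8 and Wif1 was not tested.

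Promoter sequences are shown for Wnt2b, Wnt4, Fzd1 and Wif1 because they were among the 5 genes lower at an unadjusted p under 0.01. Fzd8, the other of the 5, had no matched promoter, so it is named only and was not searched for motifs. RefSeq promoters (GRCm38.p6, 250 bases before to 50 after the start) were matched by gene identifier for 26 of the 40 genes, in 34 windows, some of which overlap. The stretches below run from 120 bases before the start to 30 after it, 5′ to 3′ along the gene's strand, with each CpG in capitals. Wnt2b lies at chr3:104961680-104961829 on the minus strand, Wnt4 at chr4:137277515-137277664 on the plus strand, Fzd1 at chr5:4758187-4758336 on the minus strand and Wif1 at chr10:121033884-121034033 on the plus strand.
Wnt2b: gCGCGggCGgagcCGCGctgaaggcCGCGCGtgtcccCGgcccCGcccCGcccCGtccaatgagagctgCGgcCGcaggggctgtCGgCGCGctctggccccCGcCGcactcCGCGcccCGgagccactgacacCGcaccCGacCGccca
Wnt4: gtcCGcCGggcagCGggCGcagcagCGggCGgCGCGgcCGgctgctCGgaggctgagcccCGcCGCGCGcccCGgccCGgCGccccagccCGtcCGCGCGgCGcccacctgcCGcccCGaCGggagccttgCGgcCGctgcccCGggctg
Fzd1: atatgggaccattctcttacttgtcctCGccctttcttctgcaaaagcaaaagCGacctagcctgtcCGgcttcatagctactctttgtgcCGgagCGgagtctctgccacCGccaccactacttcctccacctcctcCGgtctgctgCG
Wif1: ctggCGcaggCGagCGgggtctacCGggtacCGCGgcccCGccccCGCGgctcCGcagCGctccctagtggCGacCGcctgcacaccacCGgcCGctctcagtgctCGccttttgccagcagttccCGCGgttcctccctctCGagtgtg

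These stretches hold 25 CpGs in Wnt2b, 28 in Wnt4, 8 in Fzd1 and 19 in Wif1, with a G and C content of 81.3%, 87.3%, 56.0% and 73.3%. Over whole windows of 300 bases the median G and C content was 67.3% for the 34 windows of Wnt genes and 52.7% for all 32851 windows, and the median CpG count was 26 and 7. The core of the TCF and LEF motif, searched as CTTTGAT or CTTTGAA on both strands, was found in 2 of the 34 windows and in 8.65% of all windows. By gene the shares were 2 of 26 (7.69%) and 9.88%. These sets differ in G and C content, which the shares do not allow for. The motif was in none of the windows of Wnt2b, Wnt4, Fzd1 and Wif1. The matches were in 1 of 2 windows of Wnt11 and in 1 of 3 windows of Wnt5b, both of which had differences within their standard errors, and they are shown with the motif in capitals. The match of Wnt11 lies at chr7:98835051-98835077 on the plus strand and reads as the reverse complement of CTTTGAT, and that of Wnt5b lies at chr6:119449441-119449467 on the minus strand.
Wnt11: acgtgggcggATCAAAGcgacggtccg
Wnt5b: gtaagtctctCTTTGATctgctccctg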

How the data were processed

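RNA of BSMCs sorted from OVA sensitized and PBS sensitized mice was measured on 6 arrays. Per the labels 3 belong to each group. The deposited files hold log2 levels for 1 probe set per Entrez gene, which the authors corrected for background, normalized and summarized over all arrays. The submitters' processing notes name RMA and affy, and the study's methods name oligo. Neither a version nor the build is given in the sources used here. Values were used as deposited. Probe sets were named through the platform annotation, and 986 of 21225 that it does not list were left out.

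Differences were tested over 20239 genes with moderated statistics from limma (version 3.58.1, run in R 4.3.3). Tests were two-sided, with Benjamini-Hochberg adjustment over all genes at an FDR threshold of 0.25. Unadjusted p under 0.01 and 0.05 are given beside it. Without OVA 1 or OVA 3 the lone OVA array was assumed to vary like the other group. The code was tested on simulated data. The members, lists and tests were chosen with earlier results of these data known. Named genes are the 40 members, pathway genes at an unadjusted p under 0.01 and 10 cell type markers, with levels on every array for members at an unadjusted p under 0.05 in either comparison and the 2 of each role with the highest mean level. Levels of other members, 5 pathway genes at an unadjusted p under 0.05 and further markers were added after they were seen. Alternatives were use of all 6 arrays, array weights on these 6, each array left out in turn, a filter under the percentile 25 of median level, median centring, quantile normalization, an intensity trend with robust variance, and the replicate number as a block.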

Additional observations from a re-analysis of the deposited data

How the results depend on the processing

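The number of Wnt genes lower at an unadjusted p under 0.01 was 5 on OVA 1 and OVA 3 against PBS. It was 3 with all 6 arrays and with median centring, and between 0 and 3 when 1 array was left out, with 1 without OVA 1, 0 without OVA 3, 2 without PBS 3 and 3 without PBS 1 or PBS 2. It was 4 with the intensity trend or without genes of low level, 5 with quantile normalization and 6 with array weights. Of all genes in the same fits, 204 were lower with the intensity trend and 166 without genes of low level. The number was 209 with quantile normalization, 203 with median centring and 398 with array weights. Without PBS 1, PBS 2 or PBS 3 it was 151, 150 and 225. Wnt genes higher at that p numbered 0, but 1 without PBS 3 and 1 with array weights, in both cases Wnt5a. No Wnt gene passed an FDR of 0.25 except with array weights, where 6 did, Wnt2b, Wnt4, Fzd1, Fzd8, Wif1 and Wnt5a. Passes over all genes were not counted in the weighted fit, so these 6 have no share beside them. That fit estimated the weights gene by gene, since the default estimate did not converge, and gave OVA 2 a weight of 0.0852. The other 5 had 1.05 (OVA 3) to 3.3 (OVA 1), so the 2 other OVA arrays did not count alike. Over all genes, 203 were lower and 195 higher at an unadjusted p under 0.01. These counts were 117 and 57 with all 6 arrays and 398 and 345 with array weights, and when 1 array was left out they ran from 44 to 255 and from 65 to 350. The median difference of the Wnt genes stayed negative in all 13 alternatives, as low as -0.21 with all 6 arrays.

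With the replicate number as a block, 2 Wnt genes (Fzd8 and Wif1) were lower at an unadjusted p under 0.01, and of all genes 142 were lower and 351 higher. With OVA 2 left out, replicate 2 held PBS 2 alone, so the differences of this fit equalled those without PBS 2. With the replicate block and all 6 arrays 1 Wnt gene (Wif1) was lower, and 105 of all genes were lower and 81 higher. The labels tie equal numbers to no common animal or day, and same-numbered arrays had correlations of their deviations from the group means of -0.107, -0.0363 and 0.0148.

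The sign was the same in every alternative that held the gene for 29 of the 40 genes. That was 13 alternatives for each but Frzb, which had 12, since the filter on low level removed it. Signs turned for 11, none of them with an unadjusted p under 0.05 on either side. With all 6 arrays, without and with the block, the difference was 0.021 for Wnt5b, 0.049 for Wnt7b, -0.090 for Dvl3 and -0.045 for Lef1. With the block on 5 arrays it was 0.012 for Wnt11 and 0.13 for Sfrp4. With single arrays left out the values ran from -0.084 to 0.055 for Wnt5b, from -0.22 to 0.012 for Wnt11, from -0.21 to 0.0070 for Fzd2, from -0.13 to 0.046 for Ror2, from -0.11 to 0.043 for Gsk3b, from -0.15 to 0.022 for Dvl1, from -0.029 to 0.097 for Lef1, from -0.30 to 0.22 for Sfrp2 and from -0.64 to 0.13 for Sfrp4. The cause was not tested. The values carry no signal over background, so dim probe sets could not be told from bright ones by detection.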
